A study of Saccharomyces cerevisiae with 6 samples.

Results

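The regions described here are the 352 replication origins annotated on the nuclear chromosomes of *Saccharomyces cerevisiae*, of 360 origins annotated in all, the other 8 being mitochondrial. They were taken as every feature of the type origin of replication in the R64 annotation (the sacCer3 assembly), without regard to the ChIP signal. The 312 origins lying more than 20 kb from a chromosome end are called internal and the 40 others subtelomeric. The origins were 51 to 1324 bp long, with a median of 241 bp. Of the internal origins, ARS600.4 lay nearest to the limit, at 20801 bp from an end, and of the subtelomeric origins ARS1603, at 18719 bp.

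Nic96, a scaffold nucleoporin of the nuclear pore complex (NPC), was used as the bait in ChIP-seq to find the genomic sites in contact with NPCs, and the question addressed here is whether these sites include replication origins. The *tho* strain carried *mft1::NatMX*, a deletion of the *MFT1* subunit of the THO complex, which acts in mRNA biogenesis and whose loss leads to R-loop accumulation, together with *Nic96-13myc-KanMX*. The *wt* strain carried *Nic96-13myc-KanMX* alone. Both were BY4742 derivatives of S288C background (*MATalpha his3Δ1 leu2Δ0 lys2Δ0 ura3Δ0*) with the plasmid pRS313, so the tag and the auxotrophies are shared by both strains. Cells were grown at 25 °C and shifted to 37 °C for 15 min, and Nic96 was immunoprecipitated with an anti-Myc antibody. Peaks had been called over an untagged library of the same *MFT1* genotype at 37 °C, which in the case of *tho* carried *mft1::KanMX*. Of the 6 samples of the series, these 2 lists were used, and each comes from 1 library, so that no difference between the strains has a replicate check.

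At a q-value under 0.05, the *tho* list held 571 nuclear peaks with a median width of 449 bp, covering 3.36% of the nuclear genome, and the *wt* list held 993 nuclear peaks with a median width of 385 bp, covering 3.85%. The number of reads behind the lists is unknown. Neither *MFT1* nor *NIC96* was under a peak in either list (0 peaks), so the lists do not check the deletion.

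An origin of budding yeast is a short stretch of DNA bound by the origin recognition complex (ORC) at an AT-rich ARS consensus sequence. ORC and its partners load the MCM helicase there in G1, and a subset of the loaded origins fires in each S phase, some early and some late. Origins lie mostly between genes, and those near telomeres tend to fire late or to stay silent.

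The annotation was checked against this motif. An exact match to the ARS consensus sequence, an 11-bp motif searched on both strands, was present in 100 of the 312 internal origins (32.1%) and in 24 of the 40 subtelomeric origins. Among all nuclear windows of 241 bp, 1.49% held one, and among those wholly between protein-coding genes 3.38%. Of the 44 internal origins that the annotation calls putative, 1 held a match, against 99 of the 268 others.

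The sequences below are those of 4 of the 5 internal origins under a peak in both lists, then those of 2 origins under *tho* peaks only and of the rDNA origin under a *wt* peak only. All are from RefSeq (R64), written 5′ to 3′ on the forward strand, with matches to the ARS consensus sequence in capitals. Where the origin is longer than 300 bp, 300 bp around the stretch shared with the longest-overlapping peak are shown. The stretches of the first set hold no match, and the next 3 sequences hold 1 match each.
ARS600.4: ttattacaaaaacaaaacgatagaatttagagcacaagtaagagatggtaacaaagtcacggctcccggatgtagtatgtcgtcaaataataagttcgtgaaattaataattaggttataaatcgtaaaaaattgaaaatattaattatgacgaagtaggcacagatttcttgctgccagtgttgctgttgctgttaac
ARS1228: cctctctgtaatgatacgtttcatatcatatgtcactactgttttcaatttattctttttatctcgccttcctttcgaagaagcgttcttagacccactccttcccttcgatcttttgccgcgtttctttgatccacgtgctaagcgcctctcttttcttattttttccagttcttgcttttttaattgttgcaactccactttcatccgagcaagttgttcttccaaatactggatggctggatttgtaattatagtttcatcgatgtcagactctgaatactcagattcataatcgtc
ARS1233: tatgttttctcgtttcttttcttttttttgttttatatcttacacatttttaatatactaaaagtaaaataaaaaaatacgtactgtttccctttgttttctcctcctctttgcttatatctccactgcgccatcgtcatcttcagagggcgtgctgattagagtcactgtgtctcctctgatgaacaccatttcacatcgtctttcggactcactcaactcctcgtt
ARS1425: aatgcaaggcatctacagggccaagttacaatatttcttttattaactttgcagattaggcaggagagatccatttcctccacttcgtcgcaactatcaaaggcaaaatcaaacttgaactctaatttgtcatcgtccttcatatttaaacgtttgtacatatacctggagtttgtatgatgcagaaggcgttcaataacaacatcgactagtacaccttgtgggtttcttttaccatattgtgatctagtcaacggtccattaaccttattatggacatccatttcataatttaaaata
ARS912: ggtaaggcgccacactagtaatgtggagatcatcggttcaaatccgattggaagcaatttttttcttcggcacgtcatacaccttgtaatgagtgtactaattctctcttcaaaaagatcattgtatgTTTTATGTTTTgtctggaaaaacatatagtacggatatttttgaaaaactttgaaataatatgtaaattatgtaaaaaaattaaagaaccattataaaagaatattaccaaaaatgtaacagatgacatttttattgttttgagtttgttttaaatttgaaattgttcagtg
ARS1217: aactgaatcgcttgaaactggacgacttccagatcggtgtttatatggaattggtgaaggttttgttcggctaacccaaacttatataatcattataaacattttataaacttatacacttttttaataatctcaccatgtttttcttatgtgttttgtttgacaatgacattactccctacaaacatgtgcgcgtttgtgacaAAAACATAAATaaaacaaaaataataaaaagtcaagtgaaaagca
ARS1200-2: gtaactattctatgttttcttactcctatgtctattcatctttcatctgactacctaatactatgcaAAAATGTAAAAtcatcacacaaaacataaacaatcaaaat
On sacCer3 the stretches shown are chrVI:20702-20900 (ARS600.4), chrXII:919980-920279 (ARS1228), chrXII:1013795-1014022 (ARS1233), chrXIV:616311-616610 (ARS1425), chrIX:175048-175347 (ARS912), chrXII:512867-513115 (ARS1217) and chrXII:468128-468234 (ARS1200-2).

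Nic96 peaks covered few origins in either strain. In *tho*, a peak overlapped 17 of the 312 internal origins by at least 1 bp (5.45%, exact 95% binomial interval 3.21% to 8.58%). Of all internal windows of 241 bp, 4.30% were overlapped, and 14.3 internal origins would be overlapped if each peak were placed uniformly within its chromosome. In *wt*, a peak overlapped 8 of the 312 internal origins (2.56%, 1.11% to 4.99%), against 4.96% of windows and 18.7 origins under uniform placement. The *tho* count was thus 1.19 times the uniform reference and the *wt* count 0.429 times. These intervals cover counting of origins only.

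The reference depends on where origins lie. In *tho*, 6.55% of the windows centred between protein-coding genes were overlapped, against 3.52% of those centred in genes. In *wt* the order was the other way round, with 1.72% between genes and 6.09% in genes. Of the 312 internal origins, 293 had their midpoint between genes. When each origin was set against all windows of its own length and class of position (in a gene, or in a tandem, divergent or convergent spacer), 18.7 overlapped internal origins were given for *tho*, 0.909 times as many being counted, and 7.54 for *wt*, 1.06 times. The shares this reference gives, 5.996% in *tho* and 2.42% in *wt*, both lie inside the binomial interval of the origins.

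**Figure D1:**
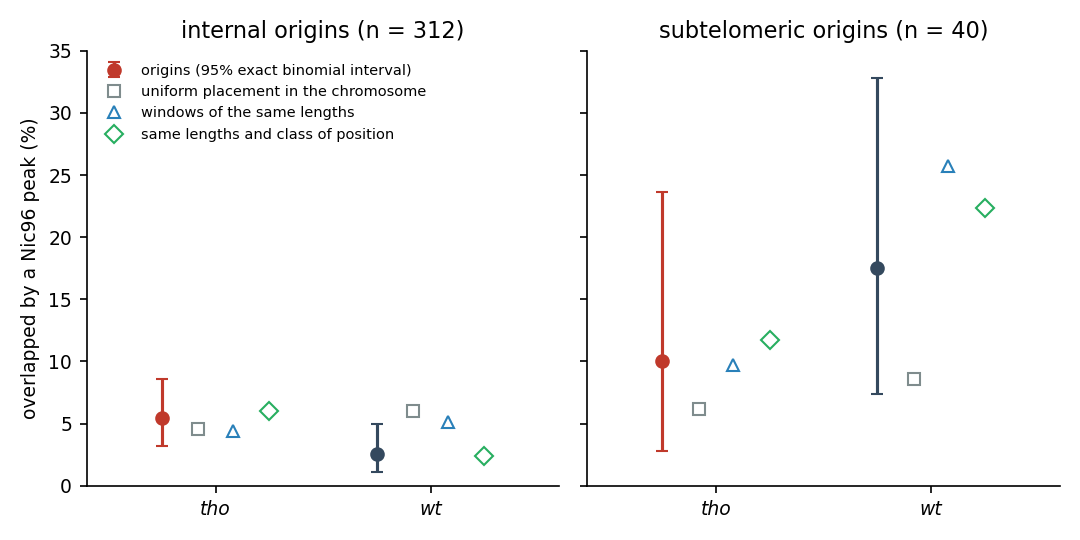
Share of internal (left, n = 312) and subtelomeric (right, n = 40) origins overlapped by a Nic96 peak, in percent, for *tho* (red) and *wt* (dark blue), with exact 95% binomial intervals, and 3 references as open symbols. For internal origins in *wt*, uniform placement (5.98%) lies above the interval and windows of the same lengths and class of position (2.42%) lie inside it.

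By class of position, the internal origins under *tho* peaks were 2 of the 19 in a gene (windows centred in a gene, 3.52%), 7 of the 139 in tandem spacers (7.24%), 1 of the 50 in divergent spacers (6.51%) and 7 of the 104 in convergent spacers (4.41%). Those under *wt* peaks were 3 of 19 in a gene (6.09%), 2 of 139 in tandem spacers (1.55%), 1 of 50 in divergent spacers (1.57%) and 2 of 104 in convergent spacers (2.60%). None of these shares has a binomial interval that leaves out the share of its windows.

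Summits inside origins and origins covered to 50% or wholly were counted, with no share of positions or windows computed beside them. No *tho* summit (0 of 506 internal summits) and 2 *wt* summits (of 837) lay inside an internal origin. At least 50% of the origin was covered for 11 of the 17 in *tho* and 3 of the 8 in *wt*. Of these, 7 in *tho* and 1 in *wt* were wholly covered. Bases within 250 bp of an internal origin midpoint were under a peak at 4.12% in *tho* and at 1.499% in *wt*, and bases from 250 to 500 bp at 5.64% in *tho* and 3.67% in *wt*, whereas the whole internal zone stood at 3.24% in *tho* and 3.20% in *wt*. Protein-coding genes made up 24.9% of the first of these distance classes and 60.1% of the second. Taking only bases in genes, *tho* cover was 7.25% within 250 bp and 7.11% from 250 to 500 bp, above the 2.80% of all internal gene bases, and *wt* cover was 2.84% and 4.46%, around its 4.05%. Taking only bases between genes, *tho* cover was 3.08% and 3.44%, below the 4.49% of all such bases, and *wt* cover was 1.06% and 2.49%, above its 0.762%.

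**Figure D2:**
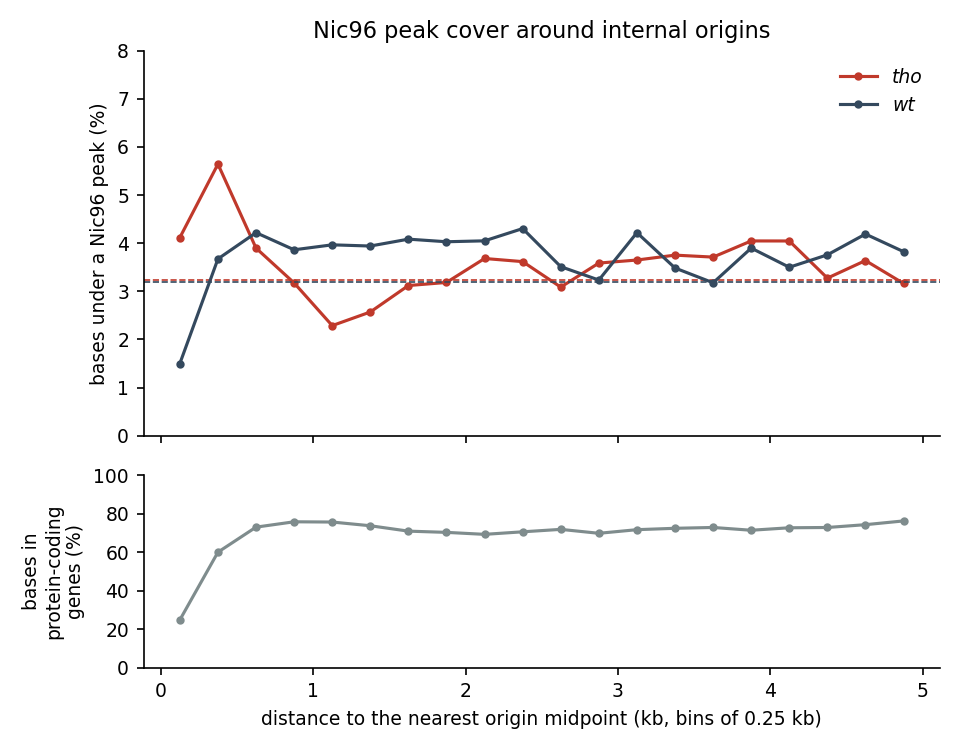
Share of bases under a Nic96 peak (top, percent) and in protein-coding genes (bottom, percent) by distance to the nearest internal origin midpoint in kb, in bins of 0.25 kb, for *tho* (red) and *wt* (dark blue), with dashed lines at the internal zone's own cover (3.24% and 3.20%). *tho* is highest from 250 to 500 bp (5.64%), where *wt* stands at 3.67%, and *wt* is lowest within 250 bp (1.499%).

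Distances were measured from each peak summit to the nearest origin. Over all nuclear peaks, the median distance from summit to origin midpoint was 8365 bp in *tho* and 8740 bp in *wt*, against 10454 bp and 10447 bp for all positions of the same chromosomes. Of the *tho* summits, 51 of 571 (8.93%) lay within 1 kb of an origin, against 33.7 at the share of all positions within that distance (5.91%). Of the *wt* summits, 69 of 993 (6.95%) did, against 58.8 (5.92%). These counts pool internal and subtelomeric summits. For internal summits alone, 39 of 506 in *tho* lay within 1 kb, against 27.8, and 47 of 837 in *wt*, against 46.2. Within 500 bp of an internal origin there were 24 *tho* summits, against 14.0 by share of positions, and 21 *wt* summits, against 23.3.

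**Figure D3:**
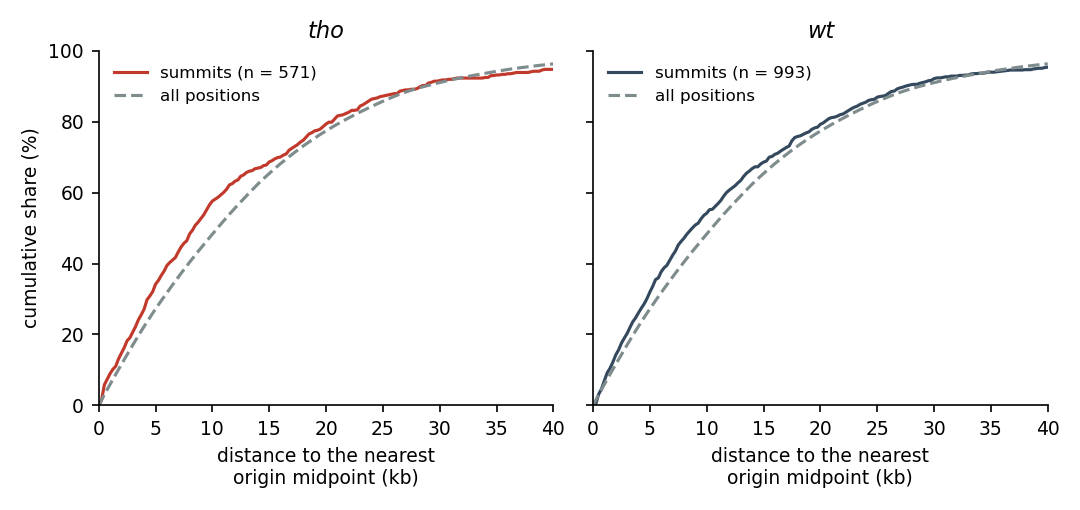
Cumulative share of nuclear peak summits (percent) by distance to the nearest origin midpoint in kb, for *tho* (left, 571 summits) and *wt* (right, 993 summits), beside all positions of the same chromosomes (dashed). Internal and subtelomeric summits are pooled. At 1 kb both summit curves lie above the dashed line (8.93% against 5.91% in *tho*, 6.95% against 5.92% in *wt*). At 500 bp *tho* lies above it (5.779% against 2.991%) and *wt* close to it (3.122% against 2.996%). The median distances are 8365 bp in *tho* and 8740 bp in *wt*.

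Most *tho* summits near internal origins, 18 of 24, lay in the neighbouring genes. These 18 include the summits beside ARS810 and ARS811, in the *CUP1* repeats. All 75-mers of their peaks occur more than once in the genome, so reads could not be placed in one repeat. Of the 286 internal *tho* summits in a gene, 18 (6.29%, 3.77% to 9.77%) were within 500 bp of an origin midpoint, against 1.59% of gene positions, or 4.54 summits. Of the 220 *tho* summits between genes, 6 (2.73%, 1.01% to 5.84%) were, against 6.21% of such positions, or 13.7 summits. In *wt*, 16 of 785 gene summits (2.04%, 1.17% to 3.29%) were within 500 bp, against 1.597% of gene positions, and 5 of 52 summits between genes (9.62%, 3.20% to 21.0%), against 6.41%.

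Genes beside origins are mostly met at an end, so gene summits were also divided by their place in the gene. Of the 18 *tho* summits, 17 were in the last 500 bp of the gene, those in the *CUP1* repeats included. Among all 179 internal *tho* summits in the last 500 bp of a gene, these 17 make 9.50% (5.63% to 14.8%), against 3.95% of such positions, or 7.07 summits. Of the 107 elsewhere in a gene, 1 was within 500 bp of an origin, against 0.483. In *wt*, 15 of the 253 summits in the last 500 bp of a gene were within 500 bp of an origin (5.93%, 3.36% to 9.59%), against 3.98% of positions, or 10.1 summits, and 1 of 532 elsewhere, against 2.66. This division by gene end was made after the summit distances had been seen, and no test compared the strains.

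The 18 *tho* summits were in 18 genes beside 17 origins, the repeated ARS810 and ARS811 among them. Their peaks had fold enrichments over the untagged library of 1.36 to 6.23 (median 1.995). The 16 *wt* summits were in 16 genes beside 16 origins, with fold enrichments of 1.58 to 2.54 (median 1.76). They shared 5 origins, with no share over all gene summits computed beside this count. At ARS1412 on chromosome XIV, a *tho* summit lay at the 3′ end of each convergent gene, *ATG2*, which acts in autophagy (fold enrichment 2.34, 194 bp from the gene's end), and *ZWF1*, glucose-6-phosphate dehydrogenase (2.27, 58 bp), while *wt* had 1 summit in *ZWF1* (1.59, 241 bp). At ARS733, the *tho* summit was in *LSC2*, a subunit of succinyl-CoA ligase (2.21), and the *wt* summit in *MPC3*, a subunit of the mitochondrial pyruvate carrier (1.82). Beside ARS1324 both summits were in *HSC82*, which encodes an Hsp90 chaperone, with 1.57 in *tho* and 1.78 in *wt*. These ARS1412 and ARS733 peaks ended before the origin. The named flanking genes of ARS1412 and ARS733 were chosen after their values were seen.

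The peaks that reached an internal origin were wide in *tho*. The 17 *tho* peaks were 963 bp wide at the median, with a median fold enrichment of 2.12 (range 1.36 to 6.23), and 7 of them were over 1000 bp wide, against 449 bp, 1.89 and 83 of 571 for all nuclear *tho* peaks. The 9 *wt* peaks were 391 bp wide at the median, with a median fold enrichment of 1.86 (range 1.27 to 2.54), against 385 bp and 1.76 for all 993. A wide peak meets an origin more often by its width alone, and under uniform placement the *tho* peaks over 1000 bp would overlap 5.47 internal origins, where they overlapped 7, and the others 9.01, where they overlapped 10. The summit was in a protein-coding gene for 15 of these 17 *tho* peaks (88.2%, all nuclear *tho* peaks 54.3%) and for 6 of these 9 *wt* peaks (66.7%, all nuclear *wt* peaks 90.3%).

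The internal origins under a peak in both lists are described first. They are 5 of the 17 in *tho* (29.4%) and 5 of the 8 in *wt* (62.5%). There were 12 internal origins under *tho* peaks only, 3 under *wt* peaks only and 292 under neither. The share of all windows overlapped in both lists was not computed, so these counts cannot be set against the general agreement of the lists.

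ARS600.4, which the annotation calls a strong ARS, is on the left arm of chromosome VI between *AGP3*, an amino acid permease gene, and *AQY3*, and overlaps the 3′ end of *AQY3*, a putative aquaglyceroporin gene. The *tho* peak had a fold enrichment of 6.23 (−log10 q 121.6) and was 4538 bp wide, covering 177 of the origin's 199 bp and running on over *AQY3* and *DAK2*, which encodes a dihydroxyacetone kinase. It ranked 9 of 571 by fold enrichment in its list. The *wt* peak had a fold enrichment of 2.54 (−log10 q 9.59), was 391 bp wide and touched the origin by 19 bp. Both summits were in *AQY3*, at 134 bp from the origin midpoint in *tho* and 301 bp in *wt*.

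ARS1425 on chromosome XIV lies wholly in *ASI3*, which encodes a subunit of the ubiquitin ligase of the inner nuclear membrane. The *tho* peak had a fold enrichment of 4.56 (−log10 q 81.8), was 1517 bp wide and had its summit in *IDP3*, the peroxisomal isocitrate dehydrogenase gene, 1044 bp from the origin midpoint. The *wt* peak had a fold enrichment of 1.86 (−log10 q 2.63) and was 366 bp wide, with the summit inside the origin and in *ASI3*.

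ARS915 on chromosome IX lies between *RGI2* and the tRNA gene *SUP17*, where both summits fell, 274 bp from the origin midpoint in *tho* and 258 bp in *wt*. The fold enrichment was 2.12 in *tho* (−log10 q 14.4, 841 bp wide) and 2.01 in *wt* (−log10 q 5.56, 458 bp wide). The tRNA gene and the origin cannot be told apart as the centre of this peak by the list alone, since the origin ends where the tRNA gene begins.

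ARS1228 on chromosome XII lies wholly within *BDF1*, which encodes a bromodomain protein associated with TFIID. The *tho* peak had a fold enrichment of 1.49 (−log10 q 3.24), was 963 bp wide and had its summit in the 3′ part of *BDF1*. In *wt*, 2 peaks reached the origin, one with a fold enrichment of 1.63 (−log10 q 2.13, 310 bp wide) near the same summit and one with 2.27 (−log10 q 7.60, 1134 bp wide) at the 5′ end of the gene.

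ARS1233, also on chromosome XII, lies between *CAR2*, the ornithine aminotransferase gene, and *MRPL4*, and overlaps *LSM3*, which encodes a subunit of the LSm complexes of RNA decay and splicing. The *tho* peak had a fold enrichment of 1.66 (−log10 q 7.26), was 1364 bp wide, covered the whole origin and had its summit in *CAR2*. The *wt* peak had 2.23 (−log10 q 7.26), was 311 bp wide and had its summit in *LSM3*, on the other side of the origin midpoint. At ARS1228 and ARS1233, unlike at the 3 origins before, the fold enrichment was lower in *tho* than in *wt*, but the lists were called against different untagged libraries and this was not tested.

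**Figure D4:**
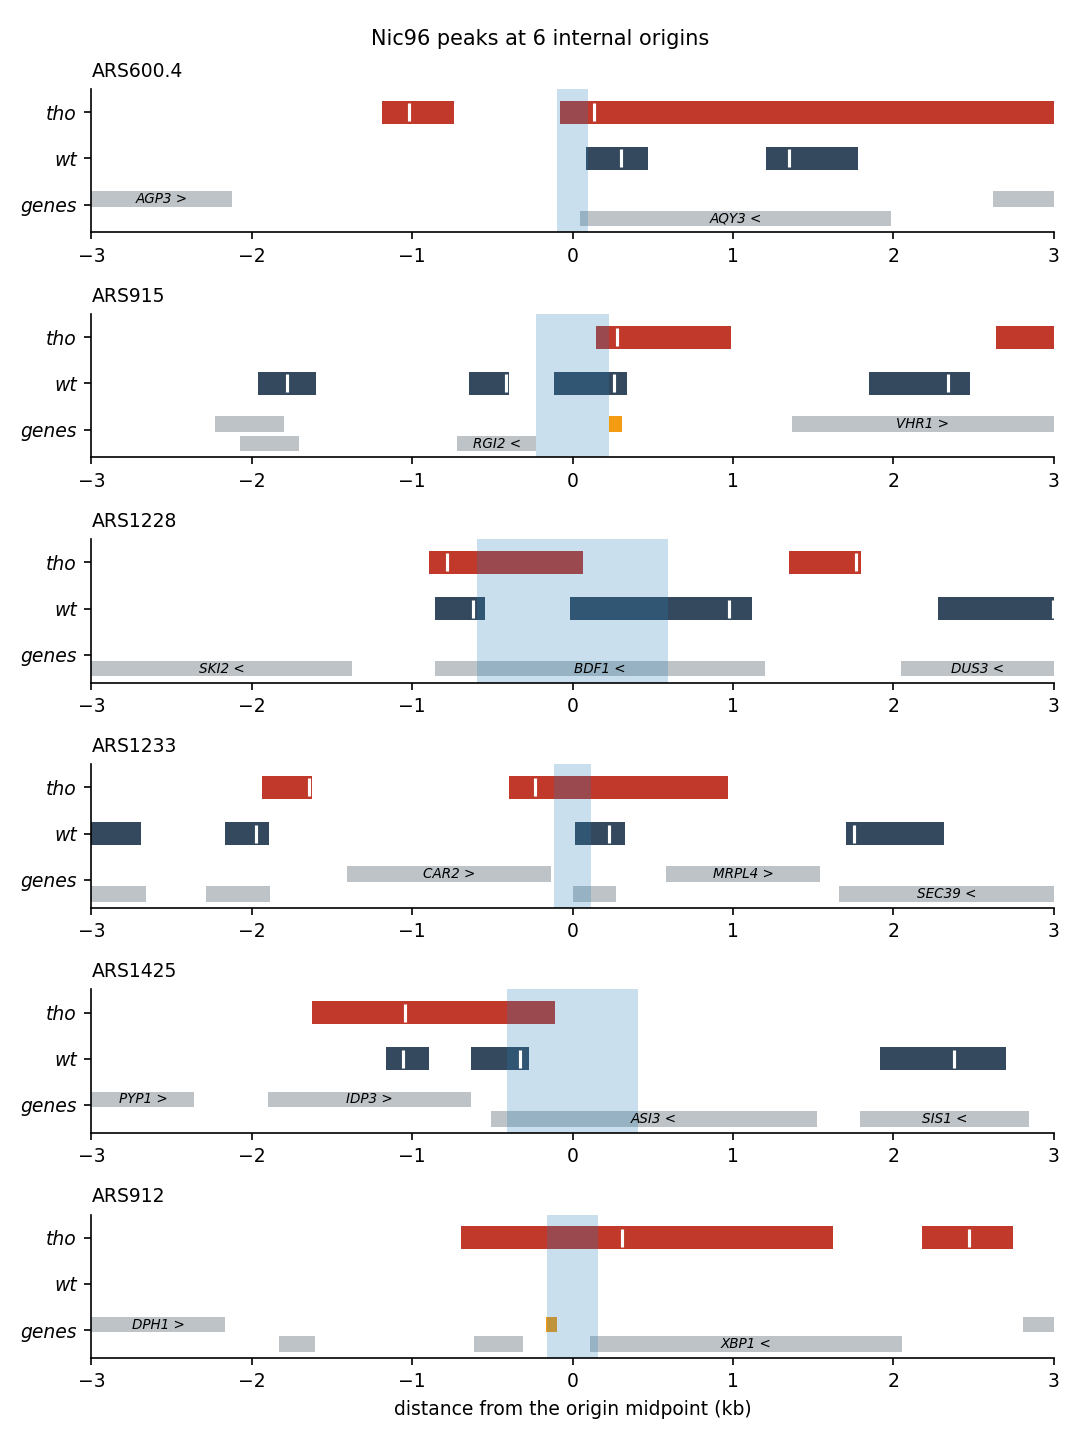
Nic96 peaks in *tho* (red) and *wt* (dark blue), each with a white line at its summit, within 3 kb of the midpoint of 6 internal origins (light blue bands), above protein-coding genes (grey, arrow for strand) and tRNA genes (orange). The *tho* peak at ARS600.4 runs past the right edge (4538 bp wide), and at ARS912 a *tho* peak of 2320 bp stands over an empty *wt* row.

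The other *tho* peaks with a high fold enrichment joined an origin to a neighbouring gene body or its 3′ end. ARS912 on chromosome IX was wholly covered by a peak of 2320 bp with a fold enrichment of 4.96 (−log10 q 137.9), whose summit was in *XBP1*, which encodes a stress-induced transcriptional repressor. A tRNA gene overlaps ARS912, and the summit lay 402 bp from it. ARS427, a putative origin on chromosome IV between *ADR1* and the checkpoint gene *RAD9*, was reached by a peak of 3.44 (−log10 q 36.2, 739 bp wide) with its summit in *ADR1*, which encodes an activator of glucose-repressed genes. ARS1328 on chromosome XIII was wholly covered by a peak of 4136 bp with a fold enrichment of 3.01, but its summit was 2735 bp away in *MLO1*, and the peak ran over the glutamate decarboxylase gene *GAD1* and over *GTO3* and *HOR7*.

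Of the next group, ARS1217 was wholly covered by a *tho* peak of 2.71 (1070 bp wide) with its summit 134 bp from the origin midpoint, at the 3′ end of *YLR177W*. ARS1006 met a peak of 2.70 (1000 bp wide) in *TOH1* by 28 bp. ARS717 was wholly covered by a peak of 2.63 (1960 bp wide) with its summit in *PYC1*, a pyruvate carboxylase gene. The lowest −log10 q of the 6 peaks at ARS912, ARS427, ARS1328, ARS1217, ARS1006 and ARS717 was 18.2, at ARS1006, and no *wt* peak overlapped these origins.

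The remaining *tho* peaks at internal origins had fold enrichments of 1.91 or less, against a median of 1.89 over all nuclear *tho* peaks. ARS602 met a peak of 1.91 (271 bp wide) in *ALR2*, a magnesium transporter gene, by 23 bp. ARS1220, only 52 bp long, was covered by a peak of 1.84 (849 bp wide) in the spacer between *YLR257W* and *GSY2*, the glycogen synthase gene. This peak overlapped the 3′ end of *YLR257W* and ended before *GSY2*, with no gene at the summit. ARS1324 shared 1 bp with the 3′ peak of *HSC82* (1.57). ARS1307.5, which overlaps *HUG1* and lies upstream of *SML1*, both of which encode inhibitors of ribonucleotide reductase, was covered by a peak of 1.40 that is at the limit of the list (−log10 q 1.31). ARS810 and ARS811 are in the *CUP1* metallothionein repeats and had 1.36 and 1.40. All 75-mers of these 2 peaks occur more than once in the genome, so reads could not be placed in one repeat.

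Of the origins under *wt* peaks only, ARS1202 on chromosome XII had a summit inside the origin, in the cysteine transporter gene *YCT1* (1.76, −log10 q 1.999, 243 bp wide). ARS519 on chromosome V was reached by a peak in the tandem spacer (1.62, −log10 q 4.76, 518 bp wide), and the *tho* peak at the same place missed the threshold (1.28, −log10 q 1.22). ARS1200-2, an origin of the rDNA, was covered by a peak with a fold enrichment of 1.27, the lowest of the 993 in *wt*, at a −log10 q of 40.3, and all its 75-mers are repeated. In the other direction, ARS602 in *wt* was met by a peak that missed the threshold (1.51, −log10 q 1.18).

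**Figure D5:**
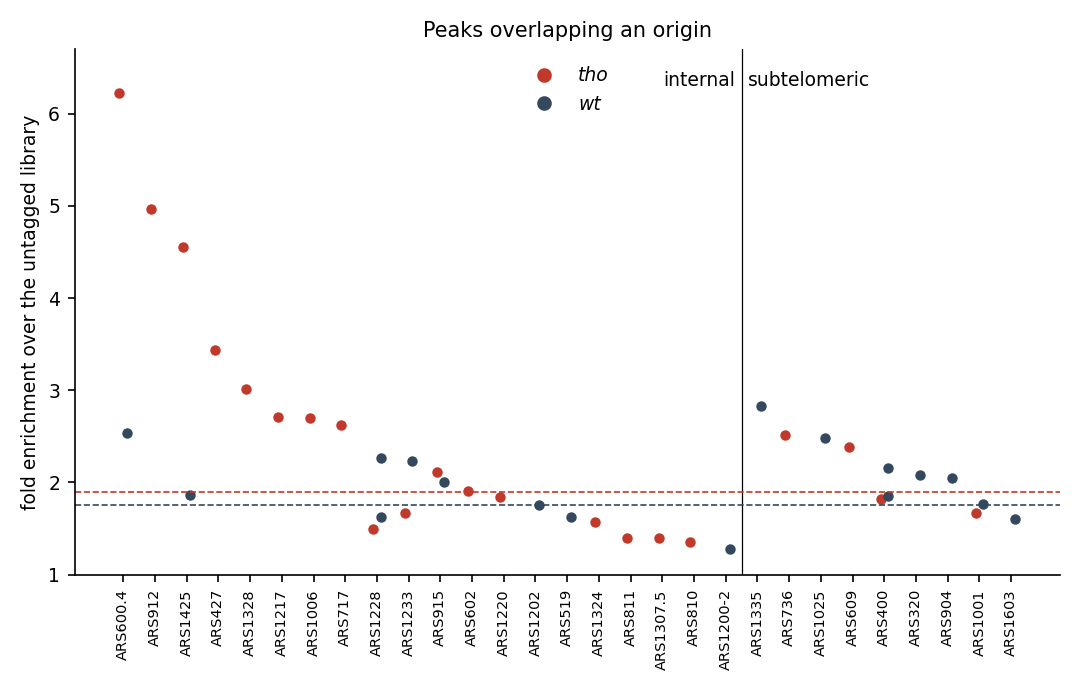
Fold enrichment over the untagged library of each peak overlapping an origin, 1 point per peak, for *tho* (red) and *wt* (dark blue), with internal origins left of the line and subtelomeric origins right of it; dashed lines mark the medians of all nuclear peaks (1.89 in *tho*, 1.76 in *wt*). The highest internal points are *tho* peaks, from 6.23 at ARS600.4 to 2.63 at ARS717.

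Several features of the origins under peaks were set beside those of the other origins. The internal origins under *tho* peaks had a median length of 321 bp and a median GC content of 32.9%, against 237 bp and 29.4% for the 295 others. Those under *wt* peaks had a median length of 387.5 bp and a median GC content of 38.0%, against 238 bp and 29.4% for the 304 others. An ARS consensus match was present in 5 of 17 (29.4%) in *tho*, against 32.2% of the others, and in 1 of 8 (12.5%) in *wt*, against 32.6%. Longer origins are met more often by their length alone.

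Putative origins, found in array studies and longer than the others (median 457.5 bp against 235.5 bp), were counted apart. Of the 44 internal ones, 35 touched a protein-coding gene, against 82 of the 268 others. Only uniform placement, which takes no account of position beside genes, was computed for these sets. Of the 44, 6 were under *tho* peaks, against 2.26 expected under uniform placement, and 4 under *wt* peaks, against 3.17. The 6 in *tho* include ARS810 and ARS811, whose peaks lie in the repeated *CUP1* sequence. Of the 268 other internal origins, 11 were under *tho* peaks, against 12.04, and 4 under *wt* peaks, against 15.5. By chromosome, uniform placement gave 0.305 to 1.304 overlapped internal origins in *tho* and 0.574 to 2.37 in *wt*. Of the 16 chromosomes, 7 had none under a *tho* peak and 11 none under a *wt* peak. Chromosome XII held 4 in *tho* (1.304 expected) and 4 in *wt* (2.37 expected). Chromosome XIII held 3 in *tho* (1.13 expected) and 0 in *wt* (1.17 expected), and chromosome VIII held 2 in *tho* (0.534 expected), both in the *CUP1* repeats, and 0 in *wt* (0.697 expected).

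Subtelomeric origins were kept apart because both lists are denser near chromosome ends. In *tho*, 4 of the 40 were under a peak (10.0%, 2.79% to 23.7%), against 7.90% of subtelomeric windows of 241 bp and 9.84% of those centred between genes. In *wt*, 7 of 40 were (17.5%, 7.34% to 32.8%), against 21.3% of windows and 12.9% of those centred between genes. Over internal and subtelomeric origins together, 21 of 352 were under a *tho* peak, against 4.49% of all nuclear windows, and 15 of 352 under a *wt* peak, against 5.82%. For the subtelomeric origins, placing each peak uniformly in the whole chromosome gave 2.48 in *tho* and 3.42 in *wt*, and placing it within the subtelomeric zone gave 3.80 in *tho* and 9.67 in *wt*. The direction of the *wt* count thus turned from 2.05 times the reference to 0.724 times with the zone in which peaks were placed.

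ARS400, 137 bp from the left end of chromosome IV, and ARS1001, 65 bp from that of chromosome X, were under peaks in both lists. The ARS400 peaks had fold enrichments of 1.82 in *tho* and 1.85 and 2.15 in *wt*. The ARS1001 peaks had 1.66 in *tho* and 1.76 in *wt*, and the *wt* peak ran 3158 bp into *YJL225C*. Between 74.0% and 100% of the 75-mers in these 5 peaks are repeated elsewhere, so the copy bound cannot be told apart. The 2 other subtelomeric origins under *tho* peaks were ARS736, in the repeats beside *YRF1-3* (2.52, with a *wt* peak there missing the threshold at a −log10 q of 1.16), and ARS609 on chromosome VI, wholly covered by a peak of 1518 bp (2.39, −log10 q 12.4) next to the hexokinase gene *HXK1*. ARS609 is annotated as firing very late. In *wt* the 5 others were ARS1335 beside *PAU19* (2.83), ARS1025 (2.49), ARS320, which partly overlaps the deaminase gene *CHA1* where the summit fell (2.08) and is annotated as inactive at its native place near *HML*, ARS904 (2.05) and ARS1603 (1.61).

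Of 17 well-studied origins, 1 was under a *tho* peak (ARS609) and 1 under a *wt* peak (ARS1200-2), which is close to the 5.97% of all nuclear origins in *tho* and 4.26% in *wt*. The median distance to the nearest peak edge was 5785 bp in *tho* and 1994 bp in *wt*. No such median was computed for all origins, and the *wt* list held more nuclear peaks (993 against 571). The efficient early origin ARS305 was 81 bp from a *tho* peak and 850 bp from a *wt* peak. ARS603, annotated as firing in the later part of S phase, was 213 bp from a *tho* peak and 953 bp from a *wt* peak. ARS315, annotated as firing in most cell cycles, was 3681 bp from a *tho* peak and 105 bp from a *wt* peak. ARS1 (ARS416), which is not counted among the 17, was under no peak. It was 67454 bp from a *tho* peak and 1622 bp from a *wt* peak. ARS306, ARS307, ARS317 (the silencer origin of *HMR*), ARS522, ARS605, ARS606, ARS607, ARS1211, ARS1413, ARS209 and ARS428 were over 1 kb from a peak of either list, and ARS1200-1 was 53285 bp from a *tho* peak and 109 bp from a *wt* peak.

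Genes whose products act in origin licensing, origin firing or DNA replication more widely were examined as a separate list of 39. All were found in the annotation, and their median length was 1863 bp, against 1200 bp for all nuclear protein-coding genes. In *tho*, 3 of them were under a peak (7.69%, 7.46% of all 6002 nuclear protein-coding genes), and in *wt* 2 were (5.13%, 13.2% of all). *TAH11*, which encodes the licensing factor Cdt1 that brings MCM to ORC, was covered by a *tho* peak over all its 1815 bp with a fold enrichment of 4.92 (−log10 q 171.9), and by a *wt* peak over 353 bp with 1.51 (−log10 q 1.51). *MCM7*, a subunit of the MCM helicase, was met over 91 bp in *tho* (2.08, −log10 q 7.75) and over 298 bp in *wt* (1.76, −log10 q 2.18). *DPB2*, a subunit of DNA polymerase epsilon, was met over 336 bp in *tho* (1.49, −log10 q 1.74), with no *wt* peak. The genes of ORC, *CDC6*, *CDC7*, *DBF4*, *CDC45* and the GINS subunits were under no peak in either list.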

How the data were processed

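Nic96-myc ChIP-seq peak lists of *tho* and *wt* cells after 15 min at 37 °C were used, 1 library each; the 25 °C and untagged libraries were not analysed here on their own. The authors mapped reads to sacCer3 with Bowtie2, removed duplicates with SAMtools and called narrow peaks with MACS2 over the untagged library (versions not given in the sources used here). In the deposited lists, fold enrichment is a ratio of tagged over untagged signal where the peak is highest. MACS2 p-values and q-values were deposited as −log10 values. A deposited score, derived from the p-value, was not used. Read numbers are not given, so the depth is unknown. The methods state a q-value under 0.05 while the deposited lists (664 peaks in *tho*, 1248 in *wt*) go beyond it. The threshold was applied (−log10 q above 1.301), which left 571 nuclear and 37 mitochondrial peaks in *tho* and 993 nuclear peaks in *wt*.

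Positions were converted to count from 1, and every peak ended within the R64 chromosome lengths. An origin counted as overlapped at 1 bp or more. Summit distances are to the origin midpoint. The references are exact expected numbers with each peak placed uniformly within its chromosome, shares of all windows of 241 bp, and windows of each origin's own length and class, with no resampling and no test between strains. Intervals are exact Clopper-Pearson intervals at the 95% level and cover counting only. Origins named are those overlapped in both lists, those with the highest fold enrichment, the widest peaks or the nearest summits in each list, and a list of well-studied origins. The sequence of 1 origin overlapped in both lists is not reported here. The members and lists were chosen with earlier results of these data known. Alternatives covered the q-value threshold, the subtelomeric limit, repeated origins, tRNA peaks, chromosome XII, the overlap rule, the distance limit and the reference. References by own length and class, the omission of putative origins and the division by gene end were added after the data had been seen. Python 3.11.15, numpy 2.4.6, scipy 1.17.1 and matplotlib 3.10.9 were used, and the scripts were tested on simulated peaks.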

Additional observations from a re-analysis of the deposited data

Results flagged for a closer look

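Outside the nuclear origins, *tho* peaks overlapped 3 of the 8 annotated mitochondrial origins (ORI8, ORI6 and ORI4), and no *wt* peak was mitochondrial (0 peaks). The 37 mitochondrial *tho* peaks covered 50.6% of that chromosome and 35.2% of its origin bases, with a median fold enrichment of 10.7, and uniform placement would overlap 4.17 origins. Whether unequal mitochondrial DNA in the tagged and untagged *tho* libraries plays a part was not tested.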

How the results depend on the processing

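Over 13 results and 106 alternative settings, 69 values stayed within 1.5 times of the main value or within its spread and 37 moved. Internal origins overlapped (17 in *tho*, 8 in *wt*, 5 in both) became 11 in *tho*, 3 in *wt* and 1 in both when a peak had to cover 50% of the origin, and 0, 2 and 0 when the summit had to be inside. With origins extended by 500 bp on each side they became 35, 37 and 14, and without putative origins 11, 4 and 2. Leaving out chromosome XII gave 4 in *wt* and 3 in both. Subtelomeric origins overlapped (4 in *tho*, 7 in *wt*) became 1 and 3 at 50% cover, 2 and 3 with the summit inside, 10 and 19 when extended, and 2 and 2 without origins mostly of repeated 75-mers; the *wt* count was 4 at a limit of 10 kb and 4 without putative origins. Summits near an origin were 33 in *tho* and 31 in *wt* within 500 bp, and 84 and 141 within 2 kb. Without repeated origins the *wt* median distance was 9670 bp, against 10896 bp for all positions in that setting. The internal ratio over the reference was 0.675 in *tho* and 1.59 in *wt* with windows between genes, and 1.06 in *wt* with windows of own length and class. That between-gene reference, applied to all 312 internal origins, gave 25.2 in *tho* and 5.02 in *wt*. It differs from the shares of windows centred between genes given above. The subtelomeric ratio was 1.05 in *tho* and 0.724 in *wt* within the zone, 1.01 in *tho* with windows between genes, and 0.851 in *tho* and 0.784 in *wt* by own length and class. So the direction of the internal counts and of the subtelomeric counts turned with the reference. The stricter overlap rules and wider origins change the counts by their construction; the cause of the other shifts was not tested. No paired analysis was possible because each condition has 1 library and no replicate number, and no library could be left out. The unknown depth limits what an absent peak can show.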
